A study of Schizosaccharomyces pombe with 2 samples.

Results

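Of the 1144 genes measured by MPE-seq in wild-type fission yeast (Schizosaccharomyces pombe), 85 met a rule for long coding introns, and they are described here. Each has exactly 1 intron in the RefSeq annotation of assembly ASM294v3, which is longer than 200 nt and lies inside the coding sequence. Genes whose symbols begin with rpl, rps, rpp, mrp, mug or meu were left out, as were prs5, cts1 and rib4. The rule also used measured values. A gene needed at least 50 mature and premature counts together in each library, and an unspliced percentage, the premature count as a share of that sum, of 1% to 50% on the mean of both libraries. The percentages of the 85 genes are therefore a description, and no test was run on their level.

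Both libraries, replicate 1 and replicate 2, came from the same Bioneer wild type, grown in YES (rich medium) into log phase at 30 °C. MPE-seq, multiplexed primer extension sequencing, extends many gene-specific primers at once into reverse transcripts that read across the intron next to each primer. The labels name neither separate cultures nor separate colonies for the 2 libraries, so each p-value below reflects no more than how these libraries differ, possibly for technical reasons. All mature counts numbered 634306 in replicate 1 and 1194460 in replicate 2, and all premature counts 53090 and 82204. The 85 genes held 47005 mature and 4898 premature counts in replicate 1, and 79906 and 7291 in replicate 2.

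Splicing removes an intron after the spliceosome has recognised its 5′ splice site, a branch point adenosine and the 3′ splice site. Introns of fission yeast are mostly short, and the usual view is that the machinery there pairs both ends across the intron itself. A transcript that keeps its intron may be a precursor on its way to being spliced or a molecule that is never spliced, and a count of unspliced RNA does not separate the cases.

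The introns of the 85 genes ran from just over 200 nt to 717 nt, with a median of 292 nt. There were 36 on chromosome I, 28 on chromosome II and 21 on chromosome III. Their 3′ ends are shown first because the branch motif and the 3′ splice site both lie there. Each line gives the last 30 bases of an intron, read from RefSeq ASM294v3 on the gene's strand, 5′ to 3′, with the branch motif nearest the end and the last 3 bases in capitals. The first set holds the 3 lowest unspliced percentages (tef5, sui1 and hom2), 4 of the 6 highest (odc1, SPCC16A11.03c, alo1 and ipa1), the pair of 14-3-3 genes rad24 and rad25, tim10 and the second longest intron, of aco1. In rad25 and aco1 the end also holds CTAAC, whose last base is the first base of the marked motif.
tef5, chrIII:1733071-1733100, plus strand: aattaccaaatcctttCTAACgttttaTAG
sui1, chrII:2105842-2105871, plus strand: cgtcagggttcctaaaCTAACatgtgtTAG
hom2, chrIII:2387187-2387216, minus strand: ttttggatacacatgaCTAACcataaaTAG
odc1, chrI:3495017-3495046, plus strand: ggccttgtttaCTAACtctttctttttCAG
SPCC16A11.03c, chrIII:873642-873671, minus strand: gatcgaccaaaaCTAACaatgaaattaTAG
alo1, chrI:1885877-1885906, minus strand: ttcgcttgcttCTAACattattattttTAG
ipa1, chrII:1077967-1077996, minus strand: acaaaagagttttgaCTAACaagatttTAG
rad24, chrI:3384715-3384744, plus strand: tccttatgtacttatcaCTAATatatcCAG
rad25, chrI:3583996-3584025, minus strand: tttgcttctttgctaaCTGATaatgtaTAG
tim10, chrI:948133-948162, minus strand: tctacaaaagtcgCTAACattcctttcTAG
aco1, chrI:3050746-3050775, minus strand: aaattatcgtactaaCTAATttttcaaTAG

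Introns at opposite ends of the range could carry the same motif, though not always at the same distance. Both tef5 (1.04% unspliced) and sui1 (1.20%) carry CTAAC 9 nt before the end of the intron, and ipa1 (45.7%) carries it 10 nt before the end. In SPCC16A11.03c it lies 13 nt before the end, and in alo1 and odc1 14 nt, with CAG as the last bases in odc1. The 4 motifs CTAAC and CTAAT, and also CTGAC and CTGAT, were searched in the last 30 bases, on the strand that reads as the transcript does. At least 1 of these 4 was found in 75 of the 85 long introns (88.2%), against 393 of 517 (76.0%) coding introns of 200 nt or less that met all other terms of the rule. CTAAC was in 60 of the long introns (70.6%) and 228 of the shorter ones (44.1%). CTAAT was in 15 (17.6%) and 144 (27.9%), CTGAC in 1 (1.18%) and 36 (6.96%), and CTGAT in 2 (2.35%) and 11 (2.13%). An intron can hold more than 1 motif. Where a motif was found, a median of 10 nt separated it from the intron's end in the long introns, with a range of 3 nt to 16 nt, and a median of 11 nt in the shorter ones, with a range of 2 nt to 25 nt.

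The share with CTAAC can be given without any measured value, over all 1003 genes with a single coding intron. It was 34.6% of 136 introns up to 45 nt, 44.0% of 302 introns of 46 to 60 nt, 54.5% of 246 introns of 61 to 100 nt and 54.8% of 199 introns above 100 and up to 200 nt. Above that length it was 60.9% of 69 introns up to 300 nt, 78.6% of 28 introns above 300 and up to 400 nt and 69.6% of 23 introns over 400 nt. The share was thus higher in each of the 3 long classes than in any shorter class. These shares describe the annotation and were not tested.

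**Figure D1:**
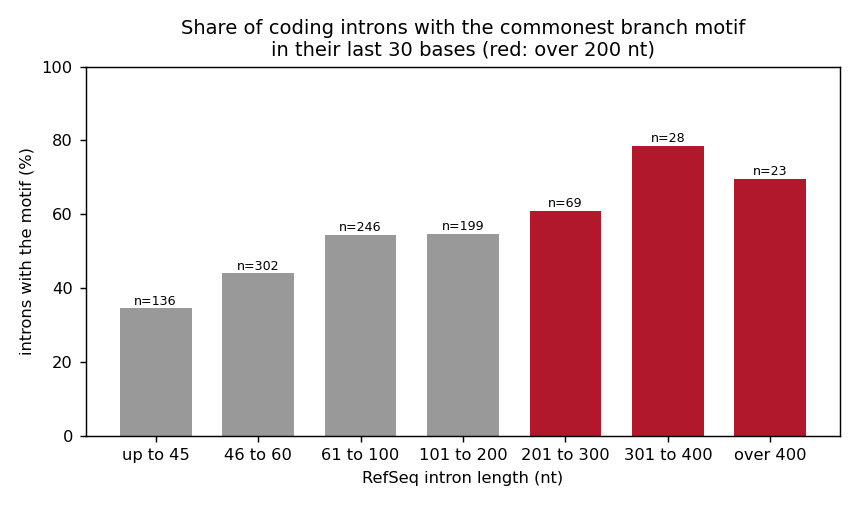
Share of RefSeq single coding introns (y axis, %) with the motif CTAAC in their last 30 bases, by intron length (x axis, nt), over 1003 genes without a count minimum; red bars are introns over 200 nt and n is the number of introns. The bars go up from 34.6% at up to 45 nt to 78.6% in the class that ends at 400 nt, and the last bar stands at 69.6%.

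Of the 85 long introns, 10 held none of the 4 motifs in their last 30 bases, and 7 of these held TTAAC, a motif that was looked at after these ends had been seen. They are shown with TTAAC in capitals, followed by the 3 ends with none of the 5 motifs (hom3, mod5 and rli1).
tim9, chrIII:909259-909288, plus strand: tcattgattagataTTAACatgaattaTAG
cut6, chrI:1252808-1252837, minus strand: tcattttgtactttaTTAACcatatttTAG
grx5, chrI:2708749-2708778, plus strand: aacatttctgtaTTAACaatttgtctgTAG
tsr2, chrII:1168032-1168061, plus strand: aagtgatacgtctaTTAACagtctattTAG
dfr1, chrIII:1855675-1855704, plus strand: gaattgtttaTTAACtcgtgtcctatgTAG
trs23, chrII:4008478-4008507, plus strand: tcaatgatatgttaTTAACcactgagaTAG
arg1, chrIII:1614578-1614607, minus strand: tttcttaaactgcttaTTAACcaagttTAG
hom3, chrII:3709726-3709755, plus strand: aaattacaaattactaaataatttattTAG
mod5, chrII:793519-793548, plus strand: agggttcagcttgctggcattaatgatTAG
rli1, chrII:4165123-4165152, plus strand: tttttattagtttgctcaccaatatttTAG

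The 7 introns with TTAAC alone lay between 1.78% unspliced in tim9 and 14.9% in grx5, for a glutaredoxin of iron-sulfur cluster assembly. The 10 introns with none of the 4 motifs had a median of 6.65% unspliced and the other 75 a median of 12.4%. Among the shorter introns the order was the other way round, with 8.58% for the 124 introns without a motif and 6.98% for the 393 with one. TTAAC, with or without another motif, was in the last 30 bases of 11 long introns (12.9%) and 105 shorter ones (20.3%). None of the 5 motifs was found in 3 long introns (3.53%) and 40 shorter ones (7.74%).

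At the 5′ end, 11 hexamers were in use among the 85 long introns, against 40 among the 517 shorter ones. GTAAGT opened 41 of the long introns (48.2%) and 173 of the shorter ones (33.5%). GTATGT opened 26 (30.6%) and 117 (22.6%). The remaining 18 long introns had a median of 16.8% unspliced, against 10.4% for GTAAGT and 12.1% for GTATGT. In the shorter introns the same medians were 7.46%, 8.25% and 5.64%. Among the 18 long introns, the 4 opened by GTGAGT had a median of 6.37%, with hom3 the highest of them at 30.9%. GTAAGG opened the introns of odc1, at 48.9%, and SPAC9E9.04, at 6.87%. The first 12 bases are shown for a common hexamer (tef5), for the longest intron (rad25), for GTGAGT, which opened 4 long introns and 1 shorter one (hom3), and for the less common hexamers of odc1 and alo1, with the hexamer in capitals.
tef5, chrIII:1732854-1732865, plus strand: GTAAGTcatttt
rad25, chrI:3584701-3584712, minus strand: GTATGTgataag
hom3, chrII:3709385-3709396, plus strand: GTGAGTattttg
odc1, chrI:3494776-3494787, plus strand: GTAAGGtttttt
alo1, chrI:1886066-1886077, minus strand: GTAATGcttttg

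Most of the long introns ended in TAG (67, or 78.8%), 14 in CAG (16.5%) and 4 in AAG (4.71%), against 79.9%, 13.2% and 6.96% of the shorter ones. The 14 introns ending in CAG had a median of 7.94% unspliced and the 67 ending in TAG a median of 12.4%. Among the shorter introns the order was the other way round, with 9.91% for 68 introns ending in CAG and 6.84% for 413 ending in TAG. The 4 ending in AAG, in pmm1, SPCC1450.15, dcp1 and rgp1, lay between 5.59% and 37.3%. The G and C content had a median of 31.1% in the long introns and 28.6% in the shorter ones.

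The long introns lay early in their genes. The median number of coding bases before the intron was 112, or 9.35% of the coding sequence, against 132 bases and 14.9% for the shorter introns. In 4 of the 85 genes (4.71%), rpb6, rpa12, grx5 and mim2, the intron lay in the last 50% of the coding sequence, against 112 of 517 (21.7%) for the shorter introns. In trr1, which encodes thioredoxin reductase, a single coding base precedes an intron of 299 nt, so the start codon itself is split. In SPAP8A3.07c, annotated as a phospho-2-dehydro-3-deoxyheptonate aldolase, 9 coding bases precede the intron.

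Read through in frame, every one of the 85 long introns held a stop codon. The first stop ended a median of 21 nt into the intron, at the latest 176 nt in dad2 and within 60 nt in 75 genes. In 16 genes (18.8%), tef5, hom3 and rpb6 among them, the stop ended at base 4 of the intron and so lay within the 5′ splice site. The same was so in 75 of the shorter introns (14.5%). Of the shorter introns, 470 of 517 (90.9%) held a stop in frame, and 47 did not. A longer intron holds more codons, and these shares make no allowance for length. The length was a multiple of 3 in 27 of the long introns (31.8%) and in 34.4% of the shorter ones.

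Medians over the 85 genes were 12.3% for replicate 1 and 10.4% for replicate 2, and 12.1% for the average of the libraries. The quartiles of that average were 6.58% and 20.7%. There were 12 genes under 5% and 37 under 10%, while 24 lay above 20% and 6 above 40%. Summed over the 85 genes, 9.44% of mature and premature counts were premature in replicate 1, with a 95% Wilson interval of 9.19 to 9.69. The share for replicate 2 was 8.36%, between 8.18 and 8.55. All intervals given cover counting error only, since amplified reads need not be separate molecules. The sum of mature and premature counts per gene ran from 52 to 5817 in replicate 1, with a median of 300, and from 71 to 10690 in replicate 2, with a median of 472.

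**Figure D2:**
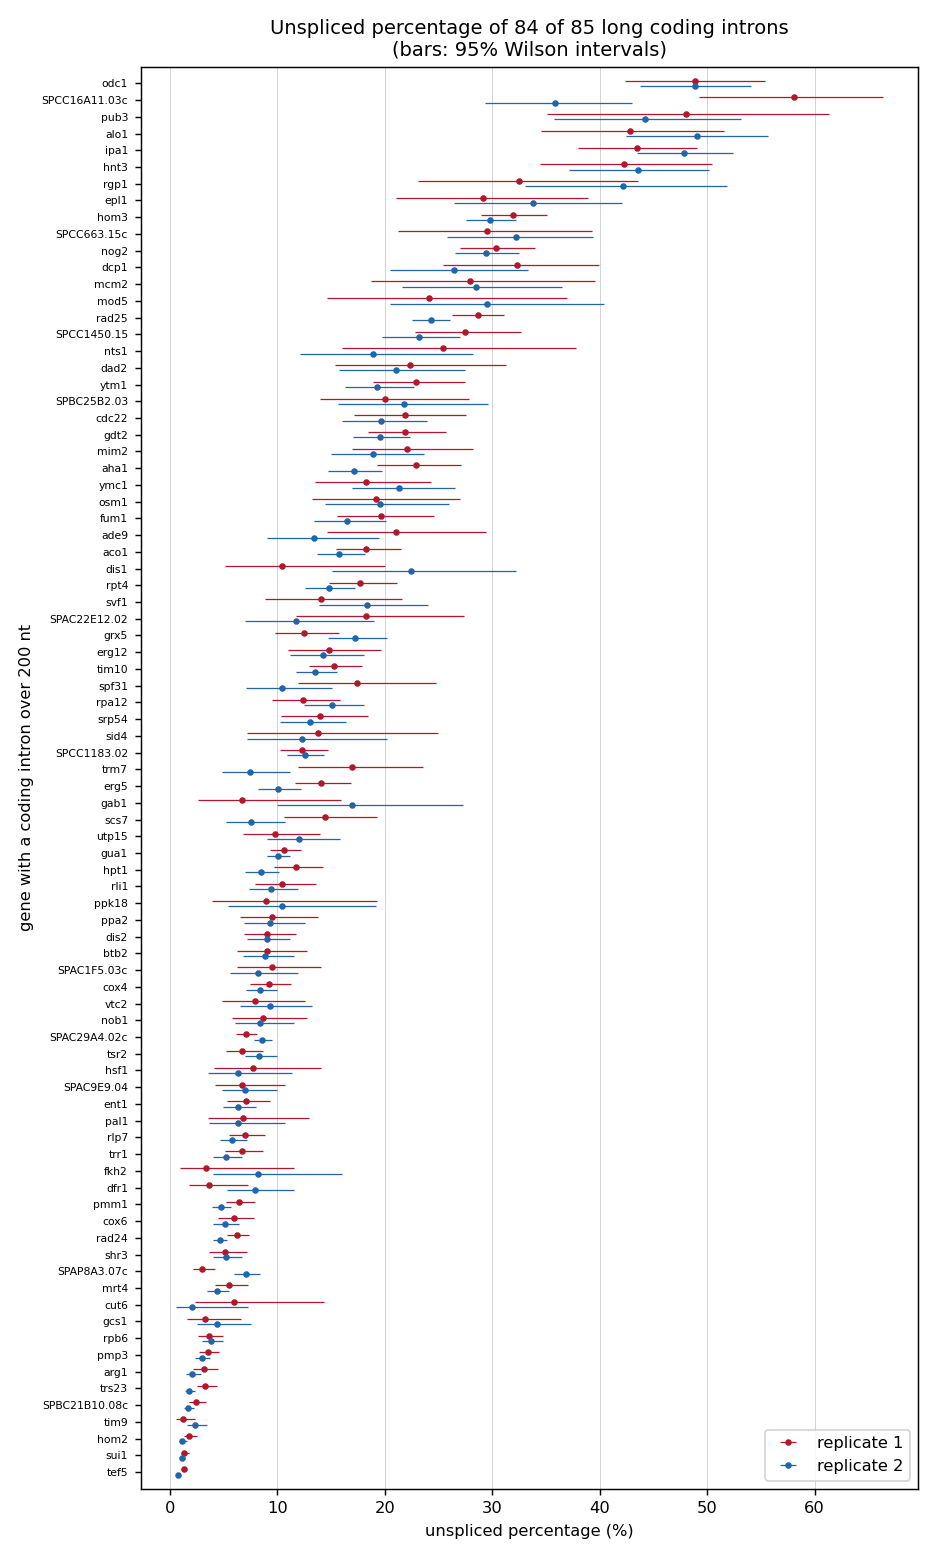
Unspliced percentage (x axis, %) of 84 of the 85 genes with a coding intron over 200 nt (y axis, ordered by the mean of both libraries), with replicate 1 in red and replicate 2 in blue and bars for 95% Wilson intervals. Means of both libraries run from about 1% in tef5 to 48.9% in odc1, and SPCC16A11.03c stands out with 58.1% in replicate 1 and 35.9% in replicate 2.

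The lowest values belonged to a pair of translation genes. The gene tef5 (SPCC1450.04), for a subunit of elongation factor EF-1, had 75 premature and 5742 mature counts in replicate 1 and 85 and 10605 in replicate 2, which is 1.29% and 0.795% unspliced. The gene sui1 (SPBC23G7.05), for the initiation factor eIF1 that acts in start codon selection, had 42 and 3111 counts in replicate 1 and 59 and 5425 in replicate 2, or 1.33% and 1.08%. Both libraries placed these genes near the lower limit of the rule. Another EF-1 subunit gene, SPAC29A4.02c, had 187 premature and 2467 mature counts in replicate 1 and 360 and 3825 in replicate 2. Its 7.05% and 8.60% were 5.46 and 10.8 times the percentages of tef5, and the 95% intervals of both genes lay apart in each library.

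The genes of ribosome assembly and RNA polymerase I numbered 9, with a median of 9.90%. Lowest was mrt4 (SPBC11G11.03), for a ribosome assembly factor, at 4.95% ± 0.779 (SD, n = 2 libraries, as for all such values). Highest was nog2 (SPAC6F6.03c), for a GTPase of ribosome export, with 205 premature and 470 mature counts in replicate 1 and 262 and 629 in replicate 2, or 30.4% and 29.4%. Between them lay rlp7 at 6.39% ± 0.819, tsr2 at 7.53% ± 1.13, nob1 at 8.54% ± 0.174, the ABC protein gene rli1 at 9.90% ± 0.747, utp15 of the U3 snoRNP at 10.9% ± 1.56, the polymerase I subunit gene rpa12 at 13.7% ± 1.93 and ytm1 at 21.1% ± 2.53. The neighbours tsr2 and nob1, and rli1 and utp15, do not differ beyond their spread.

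Mitochondrial enzyme and transport genes numbered 11 and spanned nearly the whole range, with a median of 17.0%. The partner genes tim9 and tim10 encode small chaperones that work together on proteins entering the mitochondrion. In tim9 (SPCC24B10.05, 234 nt), 8 premature and 665 mature counts in replicate 1 and 27 and 1115 in replicate 2 gave 1.19% and 2.36%. In tim10 (SPAC222.03c, 348 nt), 126 and 699 counts in replicate 1 and 165 and 1054 in replicate 2 gave 15.3% and 13.5%. Their intervals lay apart in each library.

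The respiratory chain genes cox6 (411 nt) and cox4 (355 nt), for subunits of cytochrome c oxidase, were at 5.54% ± 0.596 and 8.80% ± 0.539. Their intervals overlapped in replicate 1 and lay apart in replicate 2. Among enzymes of the citric acid cycle with some of the longest introns, aco1 (aconitase, 629 nt) had 114 premature and 510 mature counts in replicate 1 and 163 and 870 in replicate 2, or 18.3% and 15.8%. The gene fum1 (fumarase, 529 nt) had 59 and 241 counts in replicate 1 and 78 and 394 in replicate 2, or 19.7% and 16.5%. The intervals of aco1 and fum1 overlapped in both libraries. The highest value of the 85 belonged to odc1 (SPAC328.09, 271 nt), for an oxoglutarate carrier, whose 108 premature and 113 mature counts in replicate 1 and 174 and 182 in replicate 2 gave 48.9% in each library. Its intron begins with GTAAGG and ends with CTAAC followed by a run of pyrimidines and CAG, as shown above.

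In amino acid and nucleotide synthesis, 9 genes had medians of 10.7% in replicate 1 and 8.45% in replicate 2. Aspartate kinase and aspartate semialdehyde dehydrogenase catalyse neighbouring steps from aspartate towards threonine and methionine, and their genes stood at opposite ends of this group. The kinase gene hom3 (SPBC19F5.04, 371 nt) had 283 premature and 603 mature counts in replicate 1 and 446 and 1050 in replicate 2, or 31.9% and 29.8%. The dehydrogenase gene hom2 (SPCC1827.06c, 304 nt) had 35 and 1909 counts in replicate 1 and 38 and 3260 in replicate 2, or 1.80% and 1.15%. The percentage of hom3 was 17.7 and 25.9 times that of hom2. The intron of hom3 is 1 of the 3 with none of the 5 branch motifs near its end, while that of hom2 has CTAAC 9 nt from its end. Of the same 3, mod5 was at 26.8% and rli1 at 9.90%. The 10 long introns with none of the 4 motifs searched first had a median of 6.65%, below that of the others. A link between motif and percentage was not tested.

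Other genes of this group were arg1 (acetylornithine aminotransferase) at 3.12% and 2.08% in replicates 1 and 2, and the purine genes hpt1 at 11.8% and 8.45%, gua1 (IMP dehydrogenase) at 10.4% ± 0.426 and ade9 at 17.2% ± 5.40. The ribonucleotide reductase gene cdc22 (SPAC1F7.05) was at 20.8% ± 1.57, with 19 coding bases before its intron of 316 nt.

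The 14-3-3 proteins Rad24 and Rad25 bind phosphorylated partners in checkpoint and growth signalling, and each gene has a long intron beginning with GTATGT. The gene rad25 (SPAC17A2.13c) has the longest intron of the 85, at 717 nt, with 385 premature and 959 mature counts in replicate 1 and 547 and 1705 in replicate 2. The gene rad24 (SPAC8E11.02c), with 407 nt, had 142 and 2133 counts in replicate 1 and 199 and 4090 in replicate 2. That is 28.6% and 24.3% unspliced in rad25, against 6.24% and 4.64% in rad24, and the intervals lay apart in each library. The coding sequences of rad24 and rad25 were not compared. How reads from any near-identical stretches of these genes were counted is not given in the sources used here, so both values are uncertain in that respect.

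Phosphatase and kinase genes of signalling had means close to each other. The protein phosphatase genes dis2 and ppa2 were at 9.02% ± 0.0489 and 9.44% ± 0.121, and the kinase gene ppk18 at 9.66% ± 1.03. The intervals of dis2 (396 nt) and ppa2 (292 nt) overlapped in both libraries.

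Genes of cell division and the cytoskeleton had a median of 19.1% over 6 genes. The replicative helicase gene mcm2 (SPBC4.04c) was highest at 28.2% ± 0.372, with 19 premature counts in replicate 1 and 39 in replicate 2. It was followed by mod5 (a Tea1 anchor) at 26.8% ± 3.83, the DASH complex gene dad2 at 21.7% ± 0.944, the microtubule plus end gene dis1 at 16.5% ± 8.50, the spindle pole scaffold gene sid4 at 13.0% ± 1.09 and pal1 at 6.58% ± 0.369. Sums of mature and premature counts in these 6 genes were 54 to 117 in replicate 1, and dis1 rested on 7 premature and 60 mature counts in replicate 1 and 20 and 69 in replicate 2.

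Lipid and sterol genes had a median of 11.9% over 6 genes. The acetyl-CoA carboxylase gene cut6 (SPAC56E4.04c) has the longest intron after rad25 and aco1, 622 nt, and the lowest value of this group. It had 4 premature and 63 mature counts in replicate 1 and 2 and 94 in replicate 2, or 5.97% (2.35 to 14.4) and 2.08% (0.573 to 7.28). At this depth cut6 cannot be placed within the lower part of the range. The sterol pathway genes erg5 and erg12 were at 12.1% ± 2.84 and 14.5% ± 0.379, with overlapping intervals in both libraries.

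Protein folding, degradation and secretion genes had a median of 13.5% over 9 genes. The vesicle tethering gene trs23 was lowest, with 47 premature and 1382 mature counts in replicate 1 and 58 and 3136 in replicate 2, or 3.29% and 1.82%. The ubiquitin ligase gene pub3 (SPBC16E9.11c) was highest at 46.2% ± 2.70, with 25 premature and 27 mature counts in replicate 1 and 54 and 68 in replicate 2. Its sum of 52 was the smallest of the 85 in replicate 1. The longest intron of this group, in ent1 (an epsin of endocytosis, 524 nt), was at 6.70% ± 0.531, with 45 premature and 591 mature counts in replicate 1 and 64 and 948 in replicate 2. The others over 400 nt were srp54 (signal recognition particle, 480 nt) at 13.5% ± 0.652, svf1 (471 nt) at 16.2% ± 3.08 and the proteasome ATPase gene rpt4 (473 nt) at 16.2% ± 2.07.

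In the transcription and chromatin group of 4, rpb6, for a subunit shared among nuclear RNA polymerases, was at 3.71% ± 0.163, the transcription factor genes fkh2 and hsf1 at 5.81% ± 3.43 and 7.06% ± 0.982, and epl1 of the NuA4 histone acetyltransferase (521 nt) at 31.5% ± 3.29. The gene epl1 had 28 premature and 68 mature counts in replicate 1 and 46 and 90 in replicate 2. Among 5 genes of RNA processing and decay, the decapping subunit gene dcp1 was at 29.3% ± 4.14 and ipa1 (SPBC1734.10c) at 45.7% ± 3.13. In ipa1 there were 133 premature and 173 mature counts in replicate 1 and 227 and 247 in replicate 2. Redox and other enzyme genes, 8 in all, had a median of 8.71%, and ran from gcs1 (glutamate-cysteine ligase) at 3.85% ± 0.796 to hnt3 (aprataxin-like) at 42.9% ± 0.937 and alo1 (an arabinono-lactone oxidase) at 42.9% and 49.1% in replicates 1 and 2. The gene hnt3 had 60 premature and 82 mature counts in replicate 1 and 95 and 123 in replicate 2, and alo1 had 54 and 72 in replicate 1 and 106 and 110 in replicate 2. The last 9 genes, of other or unknown role, ran from 2.07% in SPBC21B10.08c, with 37 premature and 1466 mature counts in replicate 1 and 47 and 2738 in replicate 2, to 47.0% in SPCC16A11.03c. The roles were grouped by hand with the values known, and no difference between groups was tested.

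**Figure D3:**
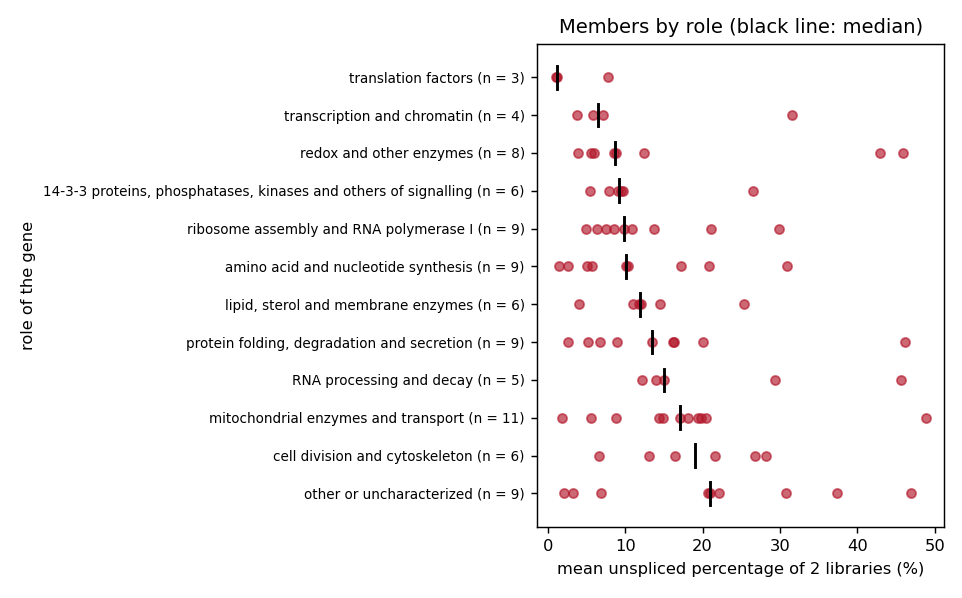
Mean unspliced percentage of both libraries (x axis, %) for each of the 85 genes, as 1 point per gene, grouped by role (y axis) and ordered by the group median, which is drawn as a black line. Medians go from 1.20% in the 3 translation factor genes to 20.9% in the last group, and most groups of 4 or more genes hold values both under 10% and over 25%.

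Unspliced percentages went up with intron length in these genes only loosely. The Spearman correlation with length over the 85 introns was 0.23 in replicate 1 and 0.19 in replicate 2. Over the 517 shorter introns it was 0.20 and 0.18. At a minimum of 200 counts, which 55 of the 85 genes reached, the correlation was 0.45, and over the 39 introns longer than 300 nt it was 0.06. Introns are not replicates, so no p is given. Split into 4 bins by length, the 22 introns up to 235 nt had a median of 8.88%, those of 244 to 292 nt 11.7%, those of 293 to 370 nt 11.2%, and the 21 of 371 to 717 nt 17.0%. Each bin was wide, with 1.20% to 46% in the shortest and 4.03% to 45.7% in the longest. Across the length classes of all coding introns under the same terms, the median was 5.93% up to 45 nt (68 introns), 5.39% at 46 to 60 nt (169 introns) and 7.76% at 61 to 100 nt (147 introns). In the longer classes it was 9.80% above 100 and up to 200 nt (133 introns), 9.77% above 200 and up to 300 nt (46 introns), 14.4% above 300 and up to 400 nt (23 introns) and 16.6% over 400 nt (16 introns). These class medians make no allowance for exonic count, which the bins by exonic count given next do.

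**Figure D4:**
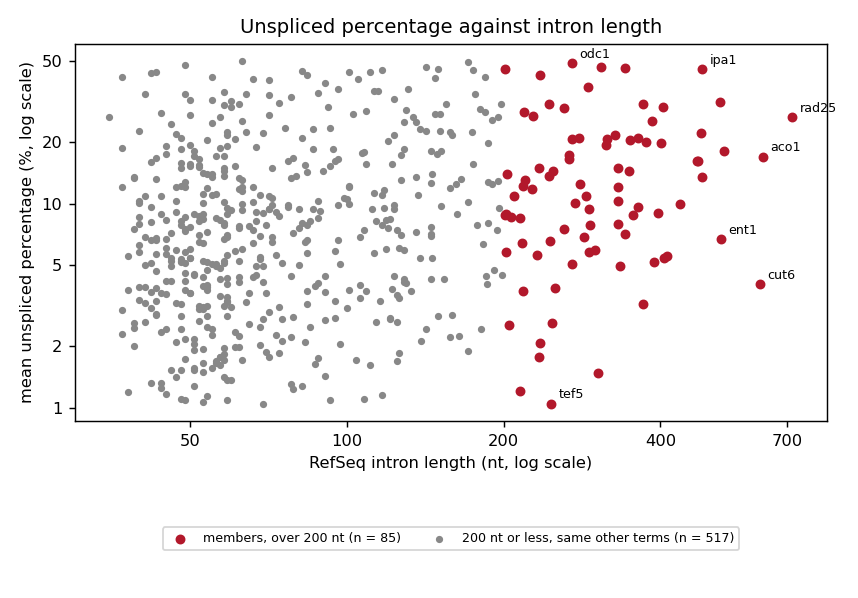
Mean unspliced percentage of both libraries (y axis, %, log scale) against RefSeq intron length (x axis, nt, log scale) for the 85 genes with introns over 200 nt (red) and the 517 genes with shorter coding introns under the same other terms (grey). The red points spread over the whole allowed range from 1% to 50%, and the longest introns, in rad25, aco1 and cut6, stand at 26.5%, 17.0% and 4.03%.

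Genes with fewer exonic counts had higher unspliced percentages, with a Spearman correlation of -0.45 in replicate 1 and -0.50 in replicate 2 between the 2 measures of the same library over the 85 genes. Over the 517 genes with shorter introns it was much the same, at -0.42 and -0.47. Exonic counts of the long intron genes were themselves high. Their median was 5027 in replicate 1 and 8199 in replicate 2, against 2429 and 3829 for the 517 genes with shorter introns. Exonic counts are not per length and are given as depth, not as expression. The genes with long and shorter introns were therefore also split together into 3 equal bins by exonic count. In the lowest bin, the median was 21.7% for 13 long introns, 19.2% for 40 introns above 100 and up to 200 nt and 10% for 148 introns of 100 nt or less. In the middle bin it was 17.9% for 20 long introns, 12.6% for 36 and 5.72% for 144. In the highest bin it was 8.70% for 52 long introns, 4.74% for 57 and 3.12% for 92. The long introns stood above those of 100 nt or less in every bin and in each library. Their order with the introns above 100 and up to 200 nt turned in the lowest bin of replicate 1, at 22.3% for the long introns and 22.5% for the others. All these medians rest on the 1% to 50% terms of the rule and were not tested.

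**Figure D5:**
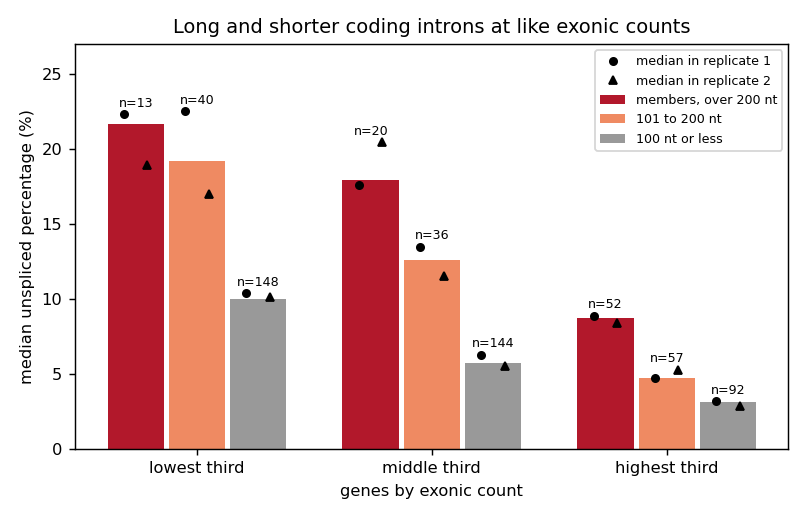
Median unspliced percentage (y axis, %) of coding introns over 200 nt (red), above 100 and up to 200 nt (orange) and of 100 nt or less (grey), in 3 equal bins of the genes by exonic count (x axis); bars are medians of the 2-library means, dots and triangles the medians in replicate 1 and replicate 2, and n the number of genes. In the highest bin the long introns stand at 8.70% and those of 100 nt or less at 3.12%.

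The libraries ordered the 85 genes alike, with a Spearman correlation of 0.93 across genes. The median SD between them was 1.13 percentage points, against 1.02 over all 864 genes with the count minimum. The root mean square difference between the libraries was 4.45 points, where counting noise alone gives 3.47, and 3.76 against 3.44 without SPCC16A11.03c. The unspliced percentage was higher in replicate 1 for 53 of the genes and lower for 32, and over all 864 genes it was higher for 525 and lower for 323.

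Fisher's exact test, two-sided, set the mature and premature counts of one library against those of the other, with Benjamini-Hochberg adjustment over 864 genes, of which 1.62% passed at an adjusted p under 0.05. It sets 2 libraries against counting noise and compares no conditions. Of the 85 genes, 2 passed, 1 lower and 1 higher in replicate 1, where the shares over all genes were 0.231% and 1.39%. The lower one was SPAP8A3.07c, the aldolase gene with 9 coding bases before its intron. It had 33 premature and 1070 mature counts in replicate 1 and 129 and 1691 in replicate 2, or 2.99% (2.14 to 4.17) and 7.09% (6.0 to 8.36), at an adjusted p of 0.000191 by Fisher's exact test. The higher one was SPCC16A11.03c, with 58.1% and 35.9%, at an adjusted p of 0.0137 by Fisher's exact test. It had 72 premature and 52 mature counts in replicate 1, and 66 and 118 in replicate 2. The 95% intervals of the libraries lay apart in 7 of the 85 genes, against 3.59% of all genes. When the test was scaled by a median-based overdispersion of 1.65, SPAP8A3.07c still passed, at an adjusted p of 0.0326, and SPCC16A11.03c did not, at 0.221. In replicate 1 alone SPCC16A11.03c would lie above the upper limit of the rule.

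Without adjustment, 14 of the 85 genes had a p under 0.05, 11 higher and 3 lower in replicate 1, against 10.3% of all genes. Among them were trm7, a tRNA methyltransferase gene, with 27 premature and 132 mature counts in replicate 1 and 20 and 250 in replicate 2, or 17.0% and 7.41%, and scs7, a sphingolipid hydroxylase gene, at 14.4% and 7.52%. Neither passed after adjustment, at 0.151 and 0.198 by Fisher's exact test. The genes dis1 and gab1 had differences of over 10 points, at 10.4% and 22.5% and at 6.67% and 16.9%, which did not pass either, at 0.492 and 0.632 by Fisher's exact test. The gene gab1, for a subunit of GPI transamidase, had 4 premature and 56 mature counts in replicate 1 and 12 and 59 in replicate 2. The next largest difference was that of rgp1, at 32.5% and 42.2%, with an adjusted p of 0.776 by Fisher's exact test. It had 25 premature and 52 mature counts in replicate 1 and 43 and 59 in replicate 2.

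An exact two-sided binomial test on exonic counts called 72.7% of 1093 genes when scaled to the library totals. Of the 85 long intron genes, 64 were called, 55 higher and 9 lower in replicate 1, against 64% and 8.78% of all genes. The split turned with the scaling: with DESeq2 size factors, by which 36.9% of all genes were called, 7 were higher and 29 lower, against 13.6% and 23.2% of all genes. With the binomial test scaled by a median-based overdispersion of 29.2, 0 of the 85 passed after adjustment and 4 had an unadjusted p under 0.05. On the log2 scale, the ratio of replicate 1 over replicate 2 had a median of 0.10 over the 85 genes and 0.13 over all genes on library totals, and -0.03 and 0.00 with the size factors. All 85 lay between -0.15 (SPCC663.15c, 3020 and 5796 counts) and 0.26 (hnt3, 3343 and 4822 counts) on library totals. The next largest ratios were 0.26 in hsf1 (4251 and 6142 counts) and 0.25 in gab1 (1292 and 1871 counts).

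In trs23 (SPBC3B9.12), alone among the 85 genes, fewer exonic than mature counts were listed, 669 against 1382 in replicate 1 and 1016 against 3136 in replicate 2. Over all genes this was so for 4 in replicate 1 and 6 in replicate 2. Exonic counts per mature or premature count had a median of 15.6 in replicate 1 and 17.2 in replicate 2 in the long intron genes. They reached 189 and 252 in cut6, whose 12690 and 24152 exonic counts came with few counts at the intron.

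Small nucleolar RNAs, which guide modification of ribosomal and other RNAs, lie inside some of these introns. RefSeq places one on the gene's strand in 5 of the 85 introns, and in none of the 517 shorter ones. These snoRNAs span 74 to 128 nt, so an intron under 74 nt could not hold any of them. The sixth single coding intron with a snoRNA among all 1003 is that of rpl701, which is also over 200 nt. The hosts were rlp7 (snoR39a) at 6.39%, SPAC29A4.02c (snoR38) at 7.82%, gua1 (snoR54) at 10.4%, nog2 (snR191) at 29.9% and ipa1 (SPNCRNA.498) at 45.7%. Both rlp7 and nog2 act in ribosome assembly. Reads of a snoRNA and of the intron around it cannot be told apart here. Without the 5 hosts the median of the long introns was 12.1%, as with them.

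Another RefSeq gene overlapped the intron on the opposite strand in 54 of the 85 genes (63.5%), against 60.2% of the shorter introns. It was a long non-coding RNA in 50 genes and a protein-coding gene in 5, and the introns of ipa1 and hnt3, among the highest values, lie wholly within yea4 and msk1, protein-coding genes of the other strand. The protein-coding overlaps of tsr2, SPCC1183.02 and spf31 were partial, and these genes were at 7.53%, 12.4% and 13.9%. The median unspliced percentage was 12.2% for the 54 genes and 11.8% for the other 31. Among the shorter introns it was 8.21% for the 311 with such an overlap and 5.63% for the 206 without, a difference that was not tested. As the strand setting is not given in the sources used here, reads of the 2 strands cannot be told apart.

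RefSeq holds 120 long single coding introns among the genes of the table, and 113 of them reached the count minimum. Of the other 35 introns, 18 were left out by symbol, 10 lay above the upper limit and 7 were under the minimum. On the mean of both libraries none of the 113 was under 1% unspliced, the lowest being tef5 at 1.04%, whereas 85 of the 671 measured coding introns of 200 nt or less were. Both the 113 and the 671 include genes left out by symbol. Without those genes, 10 of 85 introns up to 45 nt and 18 of 198 introns of 46 to 60 nt were under 1%. So were 16 of 170 introns of 61 to 100 nt and 7 of 150 above 100 and up to 200 nt. In replicate 2 alone tef5 was at 0.795% (0.644 to 0.982), under the lower limit. Above 50% on the mean were 13 of the 113 and 42 of the 671. Just inside the upper limit were odc1 at 48.9% and SPCC16A11.03c at 47.0%, and just outside it were zip2, a zinc transporter gene, at 50.6% and pis1, for phosphatidylinositol synthase, at 54.8%. Premature counts made up 119 of 232 counts in replicate 1 and 177 of 355 in replicate 2 for zip2, and 385 of 704 and 560 of 1020 for pis1. At the length limit, SPAC1F5.03c and alo1, at 8.83% and 46%, were just inside with 1 nt above it, and wos2 (199 nt) and prp38 (198 nt), at 4.47% and 30.9%, just outside. In SPAC1F5.03c, 21 of 222 counts were premature in replicate 1 and 24 of 293 in replicate 2. In wos2 there were 96 premature and 2199 mature counts in replicate 1 and 182 and 3649 in replicate 2, and in prp38 there were 40 and 87 in replicate 1 and 56 and 129 in replicate 2. At the count minimum, pub3 (52 counts in replicate 1 and 122 in replicate 2) and mod5 (54 and 78) were just inside, with 13 and 23 premature counts in mod5. Just outside were sod22 (47 and 60 counts, 5 and 16 of them premature) and ubp1 (39 and 57 counts, 3 and 2 of them premature).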

How the data were processed

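Reads were processed by the authors, and HISAT2 2.1.0, HTSeq and Trimmomatic 0.35 appear, without roles, in the submitters' processing notes. Per the file headers, the deposited tables hold raw counts of exonic, premature and mature reads for each gene. The definition of these classes, like the build, annotation and strand setting, is not given in the sources used here. Mature was read as spliced and premature as unspliced, from the names.

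Gene IDs were matched to RefSeq ASM294v3 regardless of letter case, which found 1141 of 1144 genes. Introns had to be at least 20 nt long, and a gene's value was taken to refer to its single annotated intron. Intron sequences and coordinates are those of ASM294v3. Totals of exonic counts were 5796068 in replicate 1 and 10009017 in replicate 2. Fisher and binomial tests were run over all genes with 50 counts in each library, at an adjusted p of 0.05, and were tested on simulated data. Intervals are 95% Wilson intervals. Scaling factors, but no test, came from DESeq2 1.42.0 and edgeR 4.0.16 (R 4.3.3). The tests were run with scipy 1.17.1 under Python 3.11.15, and tables were handled with pandas 2.3.3.

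A single gene of the 85 is counted throughout and is not reported here by name. The genes, the role groups and the gene pairs were chosen with earlier results of these data known. Counts and values in full were given for the highest and lowest percentages, the longest introns, the largest sums, the largest differences between the libraries, genes that passed the Fisher test, the largest exonic ratios and the genes at the limits of the rule; for other genes, and for pairs of related genes chosen after their values were seen, the mean or both percentages were given.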

Additional observations from a re-analysis of the deposited data

How the results depend on the processing

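The alternatives were another count minimum, summed counts, a single library, other length limits, overdispersion and other scalings. With a minimum of 200 counts the median of the long introns was 9.02%, its Spearman correlation with length 0.45, and the medians from the shortest class to that ending at 400 nt were 4.49%, 3.11%, 4.10%, 7.10%, 7.53% and 12.1%. A minimum of 20 gave 6.78% at 46 to 60 nt and 11% above 100 and up to 200 nt, and summed counts gave 6.15% up to 45 nt. For introns over 150 nt, the correlation was 0.0553. Over 300 nt the median was 16.2% and the correlation 0.0574. With no limits on the percentage the median was 13.7%. With 1 library left out, the class medians from shortest to longest lay between 5.51% and 5.78%, 5.43% and 6.09%, 7.57% and 8.09%, 9.68% and 11.1%, 8.74% and 9.49%, 13.5% and 14.1%, and 16.2% and 18.0%, for the same introns. With the long introns chosen anew on the remaining library (85 and 84 genes), their median lay between 11.7% and 12% and the correlation between 0.209 and 0.226, while the same 85 genes had medians of 12.3% in replicate 1 and 10.4% in replicate 2. Within these alternatives the medians over 300 nt stayed above those of every class of 100 nt or less.

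The Fisher test called 1 long intron gene, SPAP8A3.07c, at a minimum of 200 and 1 with overdispersion, where 8 of all genes were called. Exonic calls among the 85 genes were 38 with edgeR's TMM, 36 with DESeq2 size factors and 0 with overdispersion (4 at an unadjusted p under 0.05), and over all genes 410, 403 and 29. The causes were not tested. Alternatives added after seeing the data, without snoRNA hosts, without overlapped introns and without trs23, left the median between 12.1% and 12.2%. Of single genes, 3 of 85 moved by more than 1 SD with 0.5 added to each count. Summed counts cannot move a gene by more than 1 SD, since the result lies between the values of the libraries. The largest shift with summed counts was 2.16 points, in SPCC16A11.03c. No paired analysis was possible because both libraries belong to 1 group. The 67 counts of cut6 and 52 of pub3 in replicate 1 limit the precision of those genes.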
